A study of Sus scrofa with 9 samples.

Results

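Fibroblast lines derived from pig embryos (PEF), cells of the connective tissue kept in culture, were sequenced at 48 h and at 72 h after insulin had been added to the culture, and these times are compared here directly. The comparison uses 6 of the 9 samples of the series: 3 libraries from cells treated with insulin for 48 h and 3 from cells treated for 72 h, chosen by their titles alone. The other 3 samples are untreated controls taken at 0 h and do not enter any value below. Both groups carried the same treatment, embryonic stage and cell type in the submitters' labels, and they differ there in time only. The submitters describe the 3 samples at each time as biological replicates. The labels do not say whether these came from separate embryos or lines, so the p-values measure the spread between these cultures. The sources used here do not give the insulin concentration, the medium, the number of lines or the density of the cultures. Without insulin-free cultures at the same times, longer exposure to insulin and longer time in culture cannot be told apart.

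Insulin binds its receptor, or at high concentrations the related receptor of insulin-like growth factor 1, and signals through PI3K and AKT to glucose uptake, protein and lipid synthesis, and through RAS and ERK to growth-related transcription. AKT also keeps FOXO factors out of the nucleus, which lowers the transcription of genes that are high during fasting. Fibroblasts in culture make collagen and other matrix proteins, divide until they become crowded or run out of growth factors, and then leave the cell cycle. By its title, the study looked for metabolic genes that respond to insulin.

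The data are FPKM values, fragments scaled to gene length and to the fragments of the library, with 1 value per gene and library. A gene was tested with limma on log2(FPKM + 1) if it had an FPKM of at least 1 in at least 3 of the 6 libraries, and it is called higher or lower at 72 h where the Benjamini-Hochberg adjusted p over all tested genes was below 0.05. All changes are 72 h minus 48 h on that log2 scale, where the pseudocount of 1 makes changes of weakly expressed genes look smaller than they are. Of 10892 tested genes, 1833 were called (16.8%), with 633 higher at 72 h (5.81%) and 1200 lower (11.0%). Only 27 of the genes called higher and 56 of those called lower differed by at least 1. The median change over all tested genes was -0.03 and the quartiles were -0.19 and 0.13, with a median standard error of 0.10. In 4242 genes (38.9%) the 3 libraries of one time all lay above the 3 of the other, 1632 of them higher at 72 h and 2610 lower. Only 5 of the 1833 called genes overlapped between times, so lack of overlap in a called gene follows almost entirely from the call. The 10 highest and 10 lowest genes were also named only if they did not overlap. Later statements that the times did not overlap in a called gene therefore describe its values and add no support to the call. The split of the calls depends on how libraries are scaled: 34.5% of calls were higher with FPKM as deposited, and 46.2% to 52.3% were higher under 5 other scalings. When each library was scaled to an equal FPKM sum, 823 genes were called higher and 752 lower. No called gene changed sign under any of these scalings. Of the 1833 calls, 680 were kept whichever library was left out (215 higher, 465 lower).

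**Figure D1:**
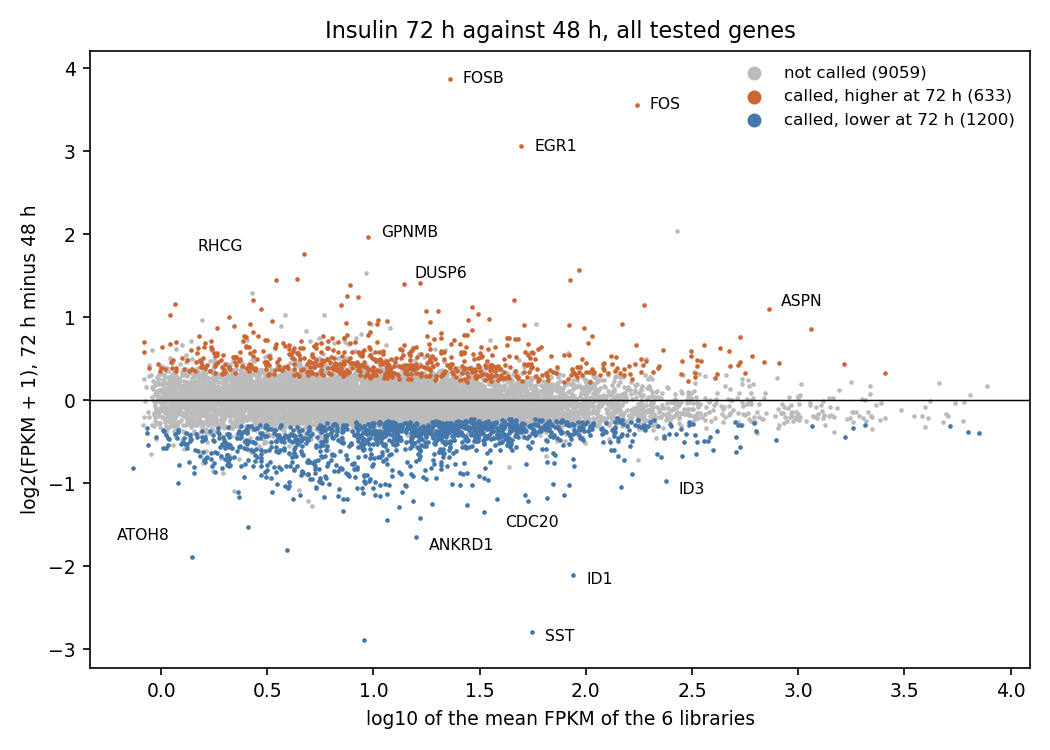
Difference between the means at 72 h and 48 h on the log2(FPKM + 1) scale (vertical axis) against the log10 of the mean FPKM of the 6 libraries (horizontal axis), with 1 point per tested gene; orange points were called higher at 72 h and blue points lower, and the other genes are grey. FOSB, FOS and EGR1 stand highest, at 3.87, 3.56 and 3.06, and SST and ID1 are among the lowest, at -2.79 and -2.11.

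The libraries separated by time. On the first principal component, with 56.9% of the variance, the 48 h libraries lay at -21.9, -14.6 and -8.7 and the 72 h libraries at 15.3, 12.4 and 17.4. FPKM summed to 543945 ± 19340 (SD, n = 3) at 48 h and 513986 ± 10450 at 72 h, and each library held 10761 to 10833 genes at or above 1 FPKM. Genes of mitochondrial DNA held 7.39% ± 0.31 of the sum at 48 h and 6.64% ± 0.62 at 72 h. Read depth is unknown. From the steps between low values, 48 h replicate 3 was estimated to be 1.36 times as deep as 72 h replicate 1, and the others at most 1.10 times as deep. These estimates are rough: they rest on 28 genes for 48 h replicate 3 and on 19 to 32 for the others. The fibroblast label was checked against 19 matched markers, all of which were tested. COL1A1, a chain of type I collagen, ranged from 7019 to 8496 FPKM and vimentin (VIM) from 5221 to 5633. Genes typical of smooth muscle and myofibroblasts were high too: the actin ACTG2 ranged from 1492 to 1980 FPKM and desmin (DES) from 789.8 to 993.3. As bulk values, these and all later ones cannot tell fewer cells of a type from less RNA per cell.

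Genes of cell division fell together between 48 h and 72 h. Of 51 tested genes of mitosis and cytokinesis, 48 were lower at 72 h and none higher, with a median log2 change of -0.87; 46 of the 48 kept the call whichever library was left out. CDC20, which activates the anaphase-promoting complex, stood at 50.1, 49.6 and 44.6 FPKM at 48 h and 17.1, 21.3 and 16.7 FPKM at 72 h. BIRC5, the survivin subunit of the chromosomal passenger complex, stood at 30.1, 25.7 and 25.2 FPKM at 48 h and 11.06, 12.2 and 9.29 FPKM at 72 h. CDCA3, a trigger of mitotic entry, stood at 27.3, 24.0 and 22.2 FPKM at 48 h and 7.39, 11.4 and 7.24 FPKM at 72 h. In each of these genes every 72 h library lay below every 48 h library, which the naming rule required of CDC20 and CDCA3. The highest of the 72 h libraries was replicate 2 in each. The log2 changes were -1.35 ± 0.10 (SE, adjusted p = 0.000124) for CDC20, -1.25 ± 0.11 (SE, adjusted p = 0.000247) for BIRC5 and -1.42 ± 0.16 (SE, adjusted p = 0.000629) for CDCA3. Cyclin B1 (CCNB1), the partner of the mitotic kinase, fell by 1.02 and the kinase itself, CDK1, by 1.04 on the log2 scale. Spindle and kinetochore genes fell by similar amounts: 1.19 for the Aurora kinase gene AURKB, 1.06 for the polo kinase gene PLK1, 1.07 for the condensin subunit NCAPG and 1.06 for CENPF. FOXM1, a transcription factor that drives many of these genes, fell by 0.98 log2 units. KIF14, ECT2 and BUB3 were the 3 members not called, with log2 changes of -0.34, -0.23 and 0.13.

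DNA replication followed the same direction. Of 46 tested genes of replication and nucleotide supply, 40 were lower at 72 h and none higher, with a median log2 change of -0.66; 30 of the 40 kept the call whichever library was left out. ASF1B, a histone chaperone of the replication fork, stood at 11.5, 10.9 and 9.78 FPKM at 48 h and 3.23, 4.10 and 3.64 FPKM at 72 h. DUT, the enzyme that clears dUTP from the nucleotide pool, stood at 209, 205 and 178 FPKM at 48 h and 88.9, 110.1 and 87.1 FPKM at 72 h. The times did not overlap in either gene, and the log2 changes were -1.33 ± 0.10 (SE, adjusted p = 0.000124) for ASF1B and -1.05 ± 0.10 (SE, adjusted p = 0.000399) for DUT. All of the helicase genes MCM2, MCM3, MCM4, MCM6 and MCM7 were called, with log2 changes of -0.92, -0.85, -0.89, -0.46 and -0.95. Loading and firing factors fell as well, CDC45 by 0.99 log2 units and CDT1 by 0.95. E2F1, a factor that turns on S-phase genes, fell by 0.97 log2 units, cyclin E1 (CCNE1) by 0.45 and thymidine kinase (TK1) by 1.01. Under the other scalings 46 to 49 mitosis genes and 38 to 39 replication genes were lower and none were higher.

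Genes that set entry into the cycle did not move as a block. Of 26 tested G1 cyclins and inhibitors, 2 were called higher and 6 lower, with a median log2 change of 0.07. Cyclin D1 (CCND1), the growth-factor-responsive partner of CDK4, fell by 0.42 log2 units and cyclin D3 (CCND3) by 0.31. Among the inhibitors of CDK4 and CDK6, CDKN2C fell by 0.78 log2 units and CDKN2D by 0.48. The retinoblastoma-family gene RBL2 rose by 0.44 log2 units, and GAS6, a secreted ligand first known from growth-arrested fibroblasts, rose by 0.57. Of 25 tested p53 genes, 4 were called higher and 1 lower (20% called, against 16.8% of all tested genes), with a median log2 change of 0.16. PLK2, a kinase induced by p53 and by serum, stood at 13.6, 13.1 and 15.1 FPKM at 48 h and 24.3, 22.8 and 21.3 FPKM at 72 h and rose by 0.67 log2 units. The 6 lower G1 genes became 3 without 48 h replicate 2 or 72 h replicate 1. With equal FPKM sums 4 G1 genes were higher and 3 lower, and with equal sums over nuclear protein-coding genes 3 and 3. Under the other scalings 6 to 11 p53 genes were higher and none lower. The 4 higher p53 genes became 1 without 48 h replicate 2, 72 h replicate 1 or 72 h replicate 3 and 2 without 48 h replicate 1. They became 6 without 48 h replicate 3 or 72 h replicate 2, and 1 of the 4 kept the call whichever library was left out. CCND3, CDKN2D and RBL2 lost their calls without at least 1 of 48 h replicate 1, 48 h replicate 2, 72 h replicate 1, 72 h replicate 2 and 72 h replicate 3 (adjusted p up to 0.157).

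**Figure D2:**
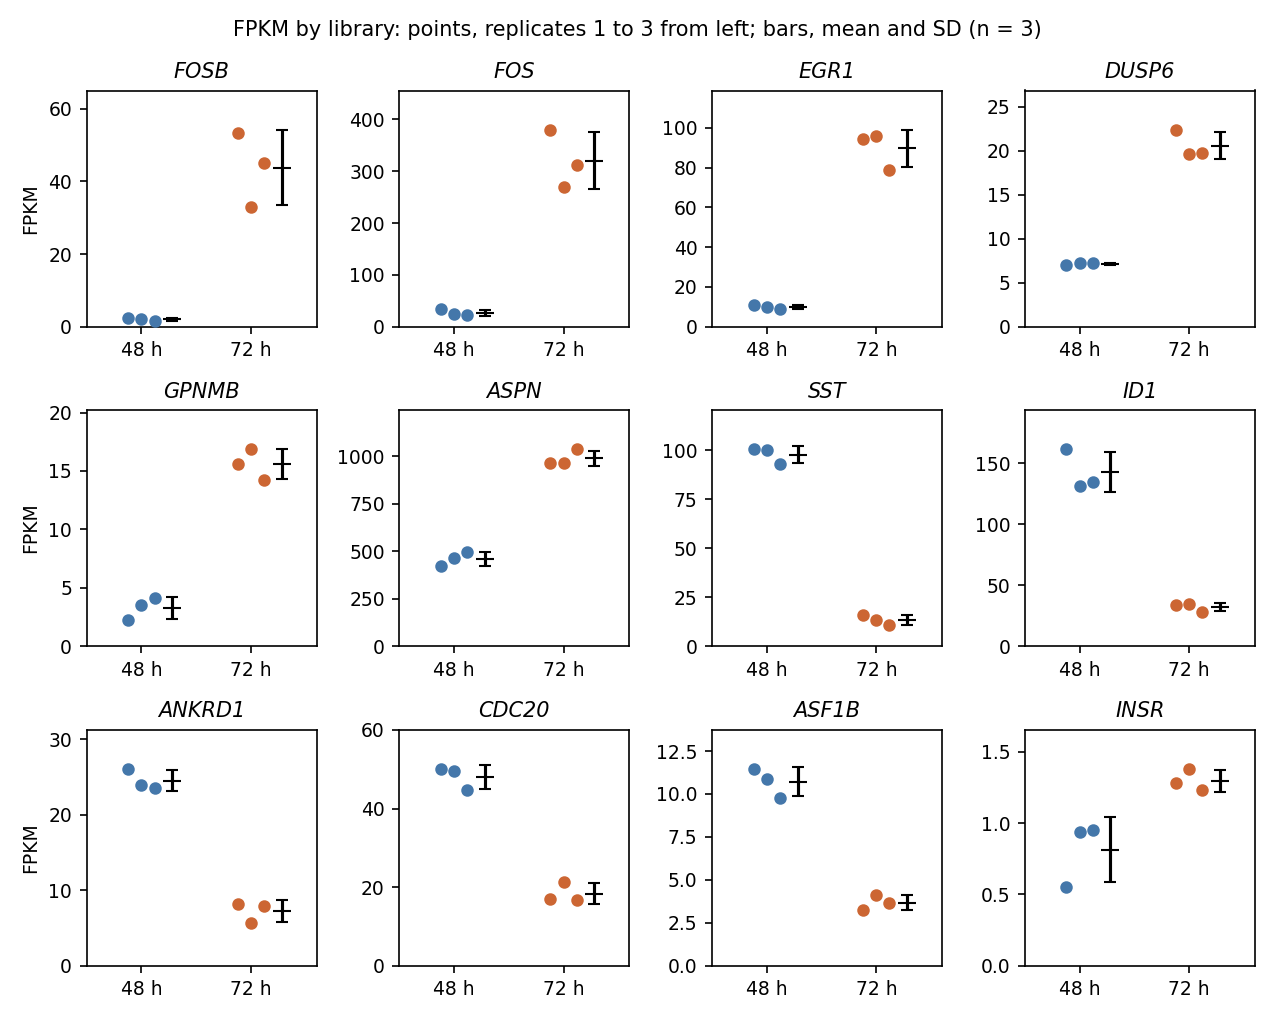
FPKM in each library for 12 genes (vertical axes, each from 0), with 48 h in blue and 72 h in orange; points are replicates 1 to 3 from left to right and the bars beside them are mean and SD (n = 3). FOSB, FOS, EGR1, DUSP6, GPNMB and ASPN are higher in every 72 h library and SST, ID1, ANKRD1, CDC20 and ASF1B are lower in every 72 h library; INSR, with an adjusted p of 0.0711, was not called.

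The largest rises were in immediate early genes, transcription factors that appear within minutes of growth factor or serum signals and usually fade soon after. FOSB (chromosome 6, 51836780 to 51844531 in Sscrofa11.1) stood at 2.42, 2.12 and 1.54 FPKM at 48 h and 53.5, 32.8 and 45.2 FPKM at 72 h. FOS (chromosome 7, 98449508 to 98451971) stood at 33.7, 23.8 and 21.8 FPKM at 48 h and 379.9, 270.2 and 312 FPKM at 72 h. EGR1 (chromosome 2, 140440829 to 140445302) stood at 11.12, 9.76 and 8.79 FPKM at 48 h and 94.2, 95.8 and 78.9 FPKM at 72 h. The lowest 72 h library exceeded the highest 48 h library by a wide margin in all of them, and no setting removed a call. Their log2 changes were 3.87 ± 0.17 (SE, adjusted p = 7.95e-06) for FOSB, 3.56 ± 0.17 (SE, adjusted p = 8.64e-06) for FOS and 3.06 ± 0.10 (SE, adjusted p = 2.14e-06) for EGR1. With a pseudocount of 0.1, FOSB rose by 4.36 log2 units, because the pseudocount of 1 holds back the change of a gene with a mean of 2.03 FPKM at 48 h.

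Other members of the response moved less and in both directions. Of 37 tested genes of AP-1, EGR and ERK feedback, 17 were higher and 7 lower, with a median log2 change of 0.29; 13 of the 17 kept the call whichever library was left out. JUNB, a partner of FOS proteins in AP-1, rose by 0.78 log2 units. The partner JUN did not pass the test, with a log2 change of 0.29 (adjusted p = 0.0977). FOSL1, a FOS-related partner, fell by 0.77 log2 units. KLF2 and KLF4, zinc-finger factors, rose by 1.25 and 0.74 log2 units. DUSP6, a phosphatase that removes the activating phosphates of ERK, stood at 7.01, 7.22 and 7.18 FPKM at 48 h and 22.4, 19.7 and 19.7 FPKM at 72 h. That is a log2 change of 1.41 ± 0.08 (SE, adjusted p = 3.71e-05), and the 48 h libraries were nearly equal. DUSP1, a phosphatase of p38, JNK and ERK, rose by 0.70 log2 units and the RAS-ERK inhibitor SPRY2 by 0.55, while DUSP4 fell by 0.48 and DUSP5 by 0.36. IER2 rose by 0.62 log2 units and ZFP36, which speeds the decay of cytokine mRNA, by 0.65. MYC rose by 0.42 log2 units. Without single libraries the 7 lower genes became 3 to 5. Under the other scalings they became 3 or 4. DUSP5, IER2 and MYC lost their calls without at least 1 of 48 h replicate 1, 48 h replicate 2, 48 h replicate 3, 72 h replicate 1, 72 h replicate 2 and 72 h replicate 3 (adjusted p up to 0.139).

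SST fell furthest of all tested genes with a symbol. It encodes somatostatin, a peptide hormone known for restraining the release of growth hormone and insulin. SST (chromosome 13, 125337560 to 125338742) stood at 101, 100.1 and 93.2 FPKM at 48 h and 15.9, 13.3 and 10.95 FPKM at 72 h. All 72 h libraries lay far below all 48 h libraries. The log2 change was -2.79 ± 0.12 (SE, adjusted p = 6.78e-06), and it kept its call in all 20 alternatives, with changes from -2.92 to -2.49. GHSR, the receptor of the hormone ghrelin, stood at 1.55, 1.97 and 2.05 FPKM at 48 h and 6.95, 6.21 and 7.46 FPKM at 72 h and rose by 1.46 log2 units (adjusted p = 0.000124). RHCG, an ammonia transporter, stood at 1.52, 1.38 and 1.91 FPKM at 48 h and 8.14, 8.15 and 7.06 FPKM at 72 h and rose by 1.76 log2 units (adjusted p = 5.59e-05). Both were low at 48 h, and neither could overlap between times under the rule that named them. DHRS3, a reductase that limits retinoic acid by turning retinal back to retinol, stood at 8.82, 9.17 and 7.67 FPKM at 48 h and 26.3, 23.6 and 23.4 FPKM at 72 h and rose by 1.41 log2 units (adjusted p = 6.86e-05). SAMD11 stood at 19.6, 14.8 and 17.7 FPKM at 48 h and 6.67, 4.54 and 6.10 FPKM at 72 h and fell by 1.45 log2 units (adjusted p = 0.000342).

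The ID genes, targets of bone morphogenetic protein (BMP) signalling, were lower at 72 h. BMP receptors phosphorylate SMAD1 and SMAD5, which switch on the ID genes, inhibitors of helix-loop-helix factors. ID1 (chromosome 17, 35316518 to 35317742) stood at 161, 132 and 135 FPKM at 48 h and 33.7, 34.8 and 28.4 FPKM at 72 h. ID3 stood at 332, 313 and 305 FPKM at 48 h and 156, 178 and 148 FPKM at 72 h. ID2 stood at 68.2, 64.9 and 64.0 FPKM at 48 h and 40.8, 44.0 and 31.4 FPKM at 72 h. No library of one time overlapped the other in these genes. The changes were -2.11 ± 0.10 (SE, adjusted p = 1.24e-05) for ID1, -0.98 ± 0.08 (SE, adjusted p = 0.000233) for ID3 and -0.76 ± 0.11 (SE, adjusted p = 0.00309) for ID2, and ID4 fell by 0.48 log2 units. The inhibitory SMAD6, itself a BMP target, fell by 1.02 log2 units, and ATOH8, a helix-loop-helix factor, fell by 1.53. The secreted antagonists went both ways: noggin (NOG) stood at 17.7, 18.8 and 20.2 FPKM at 48 h and 9.24, 8.38 and 7.17 FPKM at 72 h and fell by 1.11 log2 units, whereas chordin (CHRD) rose by 0.60. Of 26 tested BMP genes, 7 were lower and 2 higher, and the median was -0.14; 5 of the 7 kept the call whichever library was left out. ID4 lost its call without 48 h replicate 2, 48 h replicate 3, 72 h replicate 1, 72 h replicate 2 or 72 h replicate 3 (adjusted p up to 0.12).

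YAP and TEAD targets, genes tied to cell spreading and crowding, were split. ANKRD1 stood at 26.1, 23.9 and 23.5 FPKM at 48 h and 8.17, 5.60 and 7.92 FPKM at 72 h, a log2 change of -1.65 ± 0.13 (SE, adjusted p = 0.000124). CCN1 and CCN2, matricellular proteins that are also induced by growth factors, moved the opposite way, by 0.63 and 0.67 log2 units. CCN1 stood at 343, 336 and 327 FPKM at 48 h and 507, 555 and 493 FPKM at 72 h, and CCN2 at 257, 272 and 304 FPKM at 48 h and 469, 426 and 430.3 FPKM at 72 h. In both genes 48 h and 72 h did not overlap. The list had 4 higher and 4 lower of 26 tested members and a median log2 change of -0.02, which became positive (0.01 to 0.05) under the other scalings.

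Other signalling lists held calls in both directions. Called members made up 26.7% of the tested Notch list, 21.6% of the Wnt list and 23.3% of the TGF-beta list. Among all tested genes the share was 16.8%. In the Notch list 1 of 15 tested genes was higher and 3 were lower: the target HES1 rose by 0.95 log2 units, and HES4 fell by 0.81. HES4 stood at 1.56, 2.66 and 2.11 FPKM at 48 h and 0.89, 0.65 and 0.75 FPKM at 72 h. It reached 1 FPKM only at 48 h, so it was tested only through the group where it was higher. HES1 stood at 11.8, 12.2 and 12.2 FPKM at 48 h and 23.2, 32.9 and 18.4 FPKM at 72 h, and the highest value was that of 72 h replicate 2. In the Wnt list 3 of 37 were higher and 5 lower, among them AXIN2, a feedback inhibitor and standard Wnt target (log2 change -0.45), and the secreted antagonist DKK2 (-0.92). The 5 lower Wnt genes became 2 without 48 h replicate 2 or 72 h replicate 3, and 3 without 48 h replicate 1 or 72 h replicate 2; with equal FPKM sums 4 genes of the list were higher and 2 lower, and the 3 higher genes became 0 without 48 h replicate 1, 48 h replicate 2, 72 h replicate 1 or 72 h replicate 3. In the TGF-beta list 6 of 30 were higher and 1 lower, with a median log2 change of 0.00. TGFBR3, the co-receptor betaglycan, rose by 0.83 log2 units, and the ligand TGFB3 fell by 0.74. The 6 became 2 without 48 h replicate 1, 48 h replicate 2, 72 h replicate 1 or 72 h replicate 3. AXIN2 lost its call without 48 h replicate 1, 48 h replicate 2, 72 h replicate 2 or 72 h replicate 3 (adjusted p up to 0.0935).

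Growth factor receptors and ligands of fibroblasts had 6 higher and 6 lower of 29 tested members. Among receptors, the collagen-binding DDR2 rose by 0.78 log2 units, the epidermal growth factor receptor (EGFR) by 0.46 and the platelet-derived growth factor receptor PDGFRB by 0.34. FGFR3, a fibroblast growth factor receptor, stood at 3.56, 3.42 and 3.81 FPKM at 48 h and 1.12, 0.98 and 1.04 FPKM at 72 h and fell by 1.17 log2 units. Among ligands, AREG and HBEGF, which bind EGFR, fell by 0.68 and 0.61 log2 units, PDGFA fell by 0.55, and FGF2 rose by 0.41. DDR2 stood at 12.1, 21.2 and 26.3 FPKM at 48 h and 34.5, 32.9 and 32.7 FPKM at 72 h, with the 48 h libraries widely spread and 48 h replicate 1 lowest. The 6 higher genes became 3 without 48 h replicate 2 or 72 h replicate 1. DDR2, PDGFRB and FGF2 lost their calls without at least 1 of 48 h replicate 2, 72 h replicate 1, 72 h replicate 2 and 72 h replicate 3 (adjusted p up to 0.106).

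Called genes of the lysosome were all higher at 72 h. Of 61 tested genes of lysosome and autophagy, 19 were higher and none lower, with a median log2 change of 0.16, and 21 to 23 were higher under the other scalings. GPNMB, a glycoprotein of lysosomes and melanosomes, rose most: it stood at 2.26, 3.49 and 4.14 FPKM at 48 h and 15.6, 16.8 and 14.3 FPKM at 72 h, a log2 change of 1.97 ± 0.15 (SE, adjusted p = 0.000137). ASAH1, acid ceramidase, stood at 29.8, 31.7 and 32.9 FPKM at 48 h and 54.1, 52.8 and 53.3 FPKM at 72 h and rose by 0.75 log2 units. Cathepsin B (CTSB), a protease of the lysosome, stood at 513, 499 and 475 FPKM at 48 h and 703, 727 and 718 FPKM at 72 h and rose by 0.53 log2 units. None of these overlapped between times, and cathepsin D (CTSD) rose by 0.42 log2 units, cathepsin H (CTSH) by 0.49 and the membrane protein LAMP2 by 0.55. MITF, a transcription factor that controls lysosome and pigment genes, stood at 1.17, 1.21 and 1.47 FPKM at 48 h and 1.95, 2.50 and 2.48 FPKM at 72 h and rose by 0.53 log2 units. Its relatives TFEB and TFE3 were not called, with log2 changes of -0.13 and -0.14. Of the 19 calls, 9 were kept whichever library was left out, and 11 genes were called without 48 h replicate 2 or without 72 h replicate 1. CTSD and MITF lost their calls without at least 1 of 48 h replicate 2, 72 h replicate 1 and 72 h replicate 3 (adjusted p up to 0.0655).

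MLANA, a melanosome antigen, stood at 1.47, 0.84 and 1.93 FPKM at 48 h and 5.56, 4.63 and 6.38 FPKM at 72 h, a log2 change of 1.45 ± 0.17 (SE, adjusted p = 0.000874). The other defining genes of pigment cells were near 0: PMEL reached 0.32 FPKM, TYRP1 0.08, DCT 0.10, TYR 0.06 and SOX10 0.26 in its highest library, none of them was tested, and KIT reached 1.17. The summed level of the 8 matched melanocyte genes ranged from 3.71 to 4.82 FPKM at 48 h and from 8.17 to 9.85 at 72 h, and MLANA and MITF made up most of it.

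**Figure D3:**
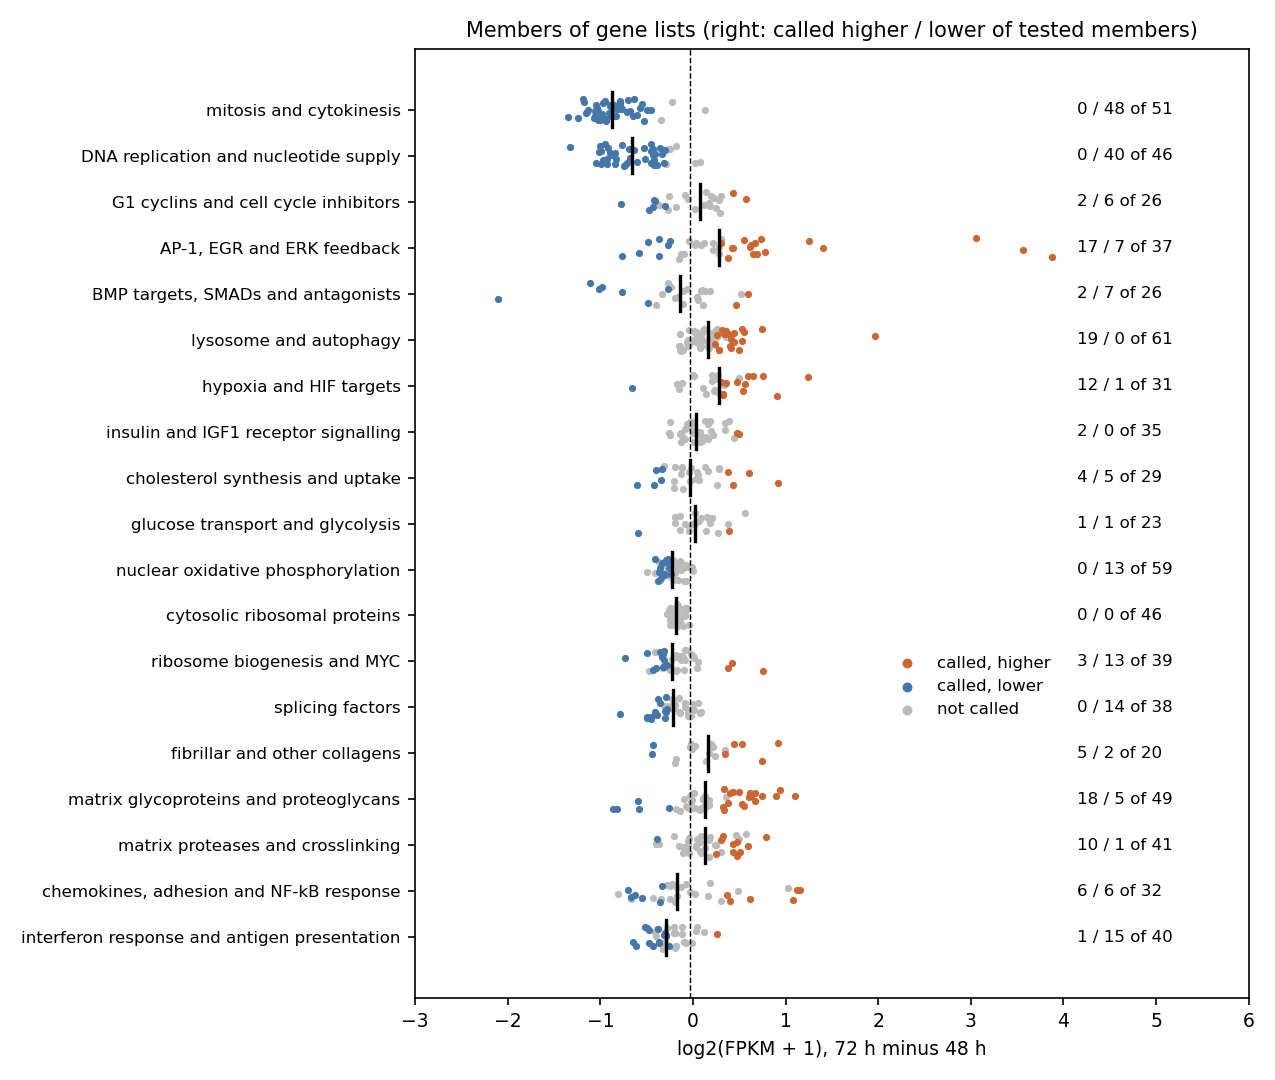
Change of each tested member of 19 gene lists, 72 h minus 48 h on the log2(FPKM + 1) scale (horizontal axis), with orange for genes called higher, blue for genes called lower and grey for genes not called; black bars are list medians, the dashed line is the median of all tested genes (-0.03), and the counts at right are called higher / called lower of tested members. Mitosis (0 / 48 of 51) and replication (0 / 40 of 46) lie to the left, whereas lysosome (19 / 0 of 61) and hypoxia genes (12 / 1 of 31) lie to the right.

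Few genes of insulin signalling itself were called between the times. Of 35 tested genes of the insulin and insulin-like growth factor 1 (IGF1) pathway, 2 were higher and none lower (5.71% called against 16.8% of all genes), with a median log2 change of 0.03. The IGF1 receptor gene IGF1R stood at 13.6, 15.1 and 17.0 FPKM at 48 h and 21.8, 20.7 and 21.7 FPKM at 72 h, a log2 change of 0.47 ± 0.09 (SE, adjusted p = 0.00843). FOXO4, one of the FOXO factors that AKT restrains, rose by 0.50 log2 units. The insulin receptor gene INSR stood at 0.55, 0.94 and 0.95 FPKM at 48 h and 1.28, 1.38 and 1.23 FPKM at 72 h, with a log2 change of 0.35 ± 0.12 (SE, adjusted p = 0.0711). Its 72 h libraries all lay above the 48 h libraries, but the gene did not pass the test, and 48 h replicate 1 was the lowest. INSR reached 1 FPKM only at 72 h, so it was tested only through that group. The adaptor genes IRS1 and IRS2 changed by -0.01 and 0.20 log2 units and the PI3K subunit PIK3R1 by 0.44 (adjusted p = 0.0669), none of them called. Neither AKT2 (log2 change -0.07) nor FOXO1 (0.07) was called. In the list of IGF ligands and binding proteins, 1 of 14 was higher, the scavenger receptor IGF2R (0.54), and 1 was lower, IGFBP6 (-0.71). That is 14.3% called. IGFBP5 changed by 0.26 log2 units without passing. FOXO4 and IGFBP6 lost their calls without at least 1 of 48 h replicate 1 and 72 h replicate 1 (adjusted p up to 0.0796).

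Of 25 tested genes known to rise when FOXO factors are active, 5 were higher and 1 lower, with a median log2 change of 0.20. That is 24% called, against 16.8% of all tested genes. Under the other scalings 6 to 11 were higher, with the 11 found where the gene span trend was removed. When 1 library was left out 4 or 5 were higher. TXNIP, an inhibitor of glucose uptake and thioredoxin, stood at 2.25, 4.83 and 4.23 FPKM at 48 h and 7.77, 17.9 and 9.72 FPKM at 72 h. The times did not overlap, but 48 h replicate 1 and 72 h replicate 2 stood apart from the others of their group, and the log2 change was 1.39 ± 0.29 (SE, adjusted p = 0.0128). TRIB1, a pseudokinase, stood at 7.10, 7.44 and 8.29 FPKM at 48 h and 15.8, 15.9 and 15.1 FPKM at 72 h and rose by 0.95 log2 units. SESN3, a sestrin that restrains mTORC1, rose by 0.49 log2 units and GABARAPL1, an autophagy protein, by 0.37. GADD45B was the 1 lower gene, at a log2 change of -0.61. DDIT4, another gene of this kind, changed by -0.15 log2 units and was not called. GABARAPL1 lost its call without 72 h replicate 1 (adjusted p up to 0.0512).

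Lipid genes gave small changes in both directions. Called genes made up 27.3% of the fatty acid synthesis list and 21.7% of the glycerolipid list, against 16.8% of all tested genes. Stearoyl-CoA desaturase (SCD), which makes monounsaturated fatty acids, stood at 135, 157 and 162 FPKM at 48 h and 212, 206 and 221 FPKM at 72 h, a log2 change of 0.49 ± 0.08 (SE, adjusted p = 0.00504). SREBF1, the factor that drives fatty acid synthesis under insulin, rose by 0.34 log2 units (adjusted p = 0.0284). Fatty acid synthase (FASN) changed by 0.13 log2 units and did not pass (adjusted p = 0.227). The fatty acid synthesis list had 4 higher and 2 lower of 22 tested, with a median log2 change of -0.02 that turned positive under some of the other scalings, up to 0.06. The 4 became 1 without 48 h replicate 1, 48 h replicate 2, 72 h replicate 1 or 72 h replicate 2, and 2 without 72 h replicate 3. Of 23 tested genes of glycerolipid assembly, lipoprotein lipase (LPL) was among 2 higher (log2 change 0.39) and the lipid droplet coat gene PLIN2 among 3 lower (-0.32). LPL stood at 0.55, 0.79 and 0.87 FPKM at 48 h and 1.26, 1.35 and 1.18 FPKM at 72 h. It reached 1 FPKM only at 72 h, so it was tested only through the group where it was higher. Of 10 tested adipocyte genes, LPL and the factor KLF4 were higher, and RBP4, a retinol carrier, was lower (log2 change -0.60). SREBF1, LPL and PLIN2 lost their calls without at least 1 of 48 h replicate 1, 48 h replicate 2, 72 h replicate 1, 72 h replicate 2 and 72 h replicate 3 (adjusted p up to 0.107).

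Cholesterol genes gave calls in both directions. ABCA1, which exports cholesterol from cells, stood at 5.56, 7.02 and 8.26 FPKM at 48 h and 14.8, 11.7 and 15.4 FPKM at 72 h and rose by 0.92 log2 units (adjusted p = 0.00343). MYLIP, a ubiquitin ligase of cholesterol homeostasis, rose by 0.61 log2 units. NPC2, a carrier of cholesterol out of the lysosome, rose by 0.43 log2 units. The mevalonate pathway genes MVK and MVD fell by 0.61 and 0.42 log2 units. HMGCS1, an early enzyme of the pathway, changed by -0.04 log2 units and was not called. With 4 higher and 5 lower of 29 tested, the median was -0.03 as deposited and between -0.01 and 0.05 under the other scalings. The 5 lower genes became 1 without 48 h replicate 2, 3 without 48 h replicate 1, 72 h replicate 1 or 72 h replicate 3 and 8 without 48 h replicate 3, and they became 3 with the gene span trend removed. MVD lost its call without 48 h replicate 1, 48 h replicate 2 or 72 h replicate 3 (adjusted p up to 0.0959).

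Few genes of the glycolysis list were called, and the called genes of respiration were lower at 72 h. In glucose transport and glycolysis 1 of 23 tested genes was higher, the transporter SLC2A10 (0.39), and 1 was lower, the aldolase ALDOC (-0.59); hexokinase 2 (HK2) changed by 0.38 log2 units without passing. Of 23 tested genes of glycogen, the pentose phosphate path and one-carbon metabolism, 1 was higher and 3 lower, with transketolase (TKT) at a log2 change of -0.35. ENO3, the muscle form of the glycolysis enzyme enolase, is in neither of these lists and is not in their counts. It stood at 45.3, 37.4 and 35.6 FPKM at 48 h and 16.2, 14.2 and 17.0 FPKM at 72 h and fell by 1.26 log2 units (adjusted p = 0.000207). In the TCA cycle and pyruvate list 1 of 31 was higher, PDK1, and 3 were lower, with IDH3G, a subunit of isocitrate dehydrogenase, at a log2 change of -0.37. In the fatty acid oxidation list 1 of 24 was higher, ACADM (log2 change 0.23), and 2 were lower, with the carnitine palmitoyltransferase CPT1A at -0.43. Among all tested genes 16.8% were called, against 8.7% of the glycolysis list and 17.4% of the glycogen list. The TCA cycle list had 12.9% called and the fatty acid oxidation list 12.5%. Among nuclear genes of oxidative phosphorylation all 59 tested members had negative changes, with a median log2 change of -0.23, and 13 were called lower. Called members made up 22% of this list and 23.1% of the genes of mitochondrial DNA. Relative to the 48 h mean, the median of the nuclear list was 0.095, 0.012 and -0.116 in the 48 h libraries. In the 72 h libraries it was -0.251, -0.133 and -0.313, so 48 h replicate 3 lay close to 72 h replicate 2. NDUFV1, a core subunit of complex I, stood at 72.7, 72.6 and 62.7 FPKM at 48 h and 51.1, 51.5 and 57.1 FPKM at 72 h and fell by 0.37 log2 units. The times did not overlap, and the steps between them were small. Among the 13 genes of mitochondrial DNA, ND4, COX3 and ND1 were lower, with log2 changes of -0.45, -0.38 and -0.37 and a list median of -0.24. COX6B2, a testis-type subunit of complex IV, stood at 6.90, 6.27 and 5.32 FPKM at 48 h and 0.58, 4.45 and 0 FPKM at 72 h. It was called lower (log2 change -1.80 ± 0.49 (SE, adjusted p = 0.0371)), but 1 of the 72 h libraries was at 0 and replicate 2 was near the 48 h values.

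The respiratory calls were sensitive to single libraries. The 13 became 1 without 48 h replicate 1, 0 without 48 h replicate 2 or 72 h replicate 1, 1 without 72 h replicate 3, and 22 without 48 h replicate 3, and 6 with equal FPKM sums. A trend with gene span could be removed only for the 39 of the 59 nuclear genes that have a span. Among these 39, 9 were lower with no trend removed and 3 with the trend removed from each library. With that trend removed none of the 13 genes of mitochondrial DNA, which all have a span, was called, and their median log2 change was -0.045. ND4, COX3, ND1, SLC2A10, TKT, IDH3G, ACADM, CPT1A, NDUFV1 and COX6B2 lost their calls without at least 1 of 48 h replicate 1, 48 h replicate 2, 48 h replicate 3, 72 h replicate 1, 72 h replicate 2 and 72 h replicate 3 (adjusted p up to 0.127).

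Called genes of the hypoxia list, which holds hypoxia factors and their targets, were higher at 72 h with 1 exception. Of 31 tested genes, 12 were higher and 1 lower, with a median log2 change of 0.28. CA12, a carbonic anhydrase of the cell surface, stood at 4.09, 5.08 and 4.55 FPKM at 48 h and 11.3, 14.7 and 10.8 FPKM at 72 h, a log2 change of 1.24 ± 0.12 (SE, adjusted p = 0.00039). ARNT, the partner of the hypoxia-inducible factors, stood at 57.3, 56.0 and 59.8 FPKM at 48 h and 114, 99.2 and 115 FPKM at 72 h, a log2 change of 0.91 ± 0.08 (SE, adjusted p = 0.000233). The times did not overlap in either gene. The factors HIF1A and EPAS1 rose by 0.59 and 0.65 log2 units, and the targets VEGFA, PDK1 and EGLN3 by 0.48, 0.56 and 0.54. The 12 became 7, 4, 6 and 5 without 48 h replicate 1, 48 h replicate 2, 72 h replicate 2 and 72 h replicate 3, in that order. HIF1A, VEGFA, PDK1 and EGLN3 lost their calls without at least 1 of 48 h replicate 1, 48 h replicate 2, 72 h replicate 1, 72 h replicate 2 and 72 h replicate 3 (adjusted p up to 0.112).

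**Figure D4:**
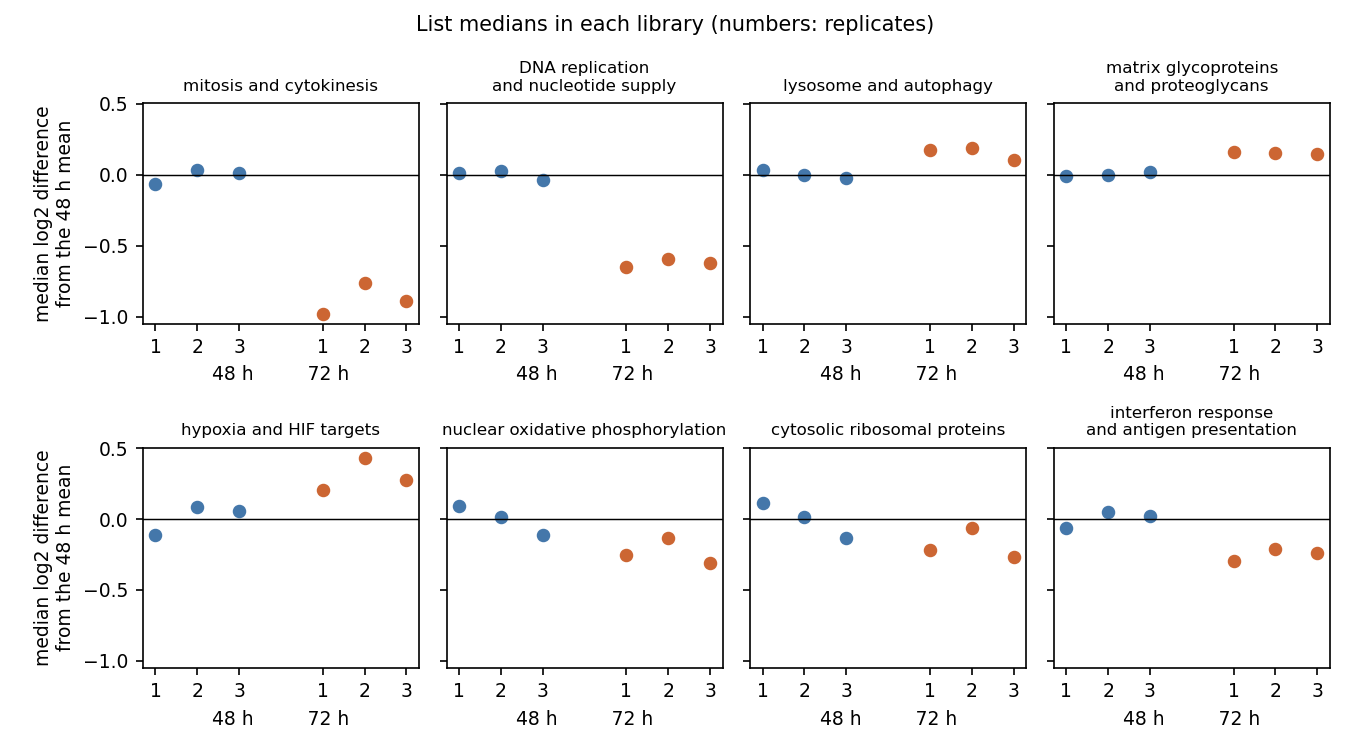
Median over the tested members of 8 gene lists in each library, as the log2(FPKM + 1) difference from the mean of the 48 h libraries (vertical axis), with 48 h libraries in blue, 72 h libraries in orange and replicate numbers on the horizontal axis. Mitosis and replication medians are lower in each 72 h library than in any 48 h library, while the ribosomal protein median in 72 h replicate 2 (-0.06) lies above that in 48 h replicate 3 (-0.14).

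Called matrix genes were mostly higher at 72 h. Of 49 tested matrix glycoproteins and proteoglycans, 18 were higher and 5 lower, with a median log2 change of 0.13; 12 of the 18 kept the call whichever library was left out. Asporin (ASPN), a small leucine-rich protein of the matrix, stood at 423, 462 and 495 FPKM at 48 h and 968, 963 and 1037 FPKM at 72 h, a log2 change of 1.10 ± 0.08 (SE, adjusted p = 0.000124). Its relative osteoglycin (OGN) stood at 5.12, 7.01 and 6.62 FPKM at 48 h and 12.7, 11.4 and 14.4 FPKM at 72 h and rose by 0.94 log2 units. Periostin (POSTN) stood at 29.9, 38.8 and 36.6 FPKM at 48 h and 51.8, 87.8 and 63.3 FPKM at 72 h and rose by 0.90 log2 units, with 72 h replicate 2 highest. All 3 genes were without overlap between times. Decorin (DCN) and lumican (LUM), of the same leucine-rich family, rose by 0.61 and 0.50 log2 units, fibrillin 1 (FBN1) by 0.67 and fibronectin (FN1) by 0.43. The hyaluronan synthase HAS2 fell by 0.87 log2 units, and HAPLN1, which links hyaluronan to proteoglycans, fell by 0.58. CCN3, a matricellular relative of CCN1 and CCN2, fell by 0.82 log2 units. FN1 and HAPLN1 lost their calls without at least 1 of 48 h replicate 1, 48 h replicate 2, 72 h replicate 1, 72 h replicate 2 and 72 h replicate 3 (adjusted p up to 0.0999).

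Collagens were divided, and the most abundant chains were not called. Of 20 tested chains, 5 were higher and 2 lower, with a median log2 change of 0.16. COL6A3, a chain of the microfibrillar type VI collagen, stood at 94.7, 108 and 105 FPKM at 48 h and 183, 210.0 and 192 FPKM at 72 h, a log2 change of 0.92 ± 0.08 (SE, adjusted p = 0.000254). COL14A1, of a type that decorates fibrils, stood at 35.4, 36.1 and 35.1 FPKM at 48 h and 53.1, 66.5 and 61.5 FPKM at 72 h and rose by 0.74 log2 units. The type I and III chains COL1A1, COL1A2 and COL3A1 changed by 0.17, 0.21 and 0.20 log2 units and were not called. COL18A1, a basement membrane collagen, fell by 0.44 log2 units. The 5 became 3, 2, 3 and 2 without 48 h replicate 1, 48 h replicate 2, 72 h replicate 1 and 72 h replicate 3. COL18A1 lost its call without 48 h replicate 1, 48 h replicate 2, 72 h replicate 1 or 72 h replicate 3 (adjusted p up to 0.12).

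Proteases and crosslinking enzymes were higher in 10 of 41 tested genes and lower in 1. The collagenase MMP1 stood at 20.0, 18.8 and 20.7 FPKM at 48 h and 31.7, 39.4 and 34.2 FPKM at 72 h, a log2 change of 0.79 ± 0.09 (SE, adjusted p = 0.000833). The gelatinase MMP2 stood at 386, 376 and 358 FPKM at 48 h and 508, 674 and 527 FPKM at 72 h and rose by 0.60 log2 units. Neither gene overlapped between times. MMP14, which activates MMP2 at the cell surface, rose by 0.43 log2 units, the fibroblast protease FAP by 0.51 and the crosslinking enzyme LOXL2 by 0.48. PLAUR, the urokinase receptor, was the 1 lower gene (log2 change -0.39). Of 22 tested integrins and cadherins, 6 were higher and none lower, with a median log2 change of 0.18. The collagen-binding integrin ITGA11 stood at 25.8, 26.3 and 29.6 FPKM at 48 h and 43.7, 40.7 and 42.4 FPKM at 72 h and rose by 0.62 log2 units. Counts in that list fell to 4, 2, 1 and 2 without 48 h replicate 1, 48 h replicate 2, 72 h replicate 1 and 72 h replicate 3. The actomyosin list had 2 higher and 4 lower of 37 tested members (16.2% called, against 16.8% of all tested genes). Its members ACTN4 and ZYX, proteins of actin bundles and focal adhesions, changed by -0.29 and -0.40 log2 units. PLAUR, ACTN4 and ZYX lost their calls without at least 1 of 48 h replicate 2, 72 h replicate 1 and 72 h replicate 3 (adjusted p up to 0.106).

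Inflammatory genes were divided. Of 32 tested chemokine, adhesion and NF-kB genes, 6 were higher and 6 lower. Lipocalin 2 (LCN2), an iron-scavenging protein of inflammation, stood at 128, 119 and 100.4 FPKM at 48 h and 233, 305 and 241 FPKM at 72 h, a log2 change of 1.15 ± 0.12 (SE, adjusted p = 0.000527). PTGS2, the inducible cyclooxygenase, stood at 15.2, 18.9 and 19.6 FPKM at 48 h and 34.3, 47.6 and 39.1 FPKM at 72 h, a log2 change of 1.12 ± 0.13 (SE, adjusted p = 0.00084). NFKBIZ, an atypical inhibitor-family protein that cooperates with NF-kB, stood at 11.07, 10.6 and 11.4 FPKM at 48 h and 23.5, 23.3 and 26.4 FPKM at 72 h and rose by 1.08 log2 units. In all of these genes the times did not overlap. In contrast NFKBIA, the classical NF-kB inhibitor and target, stood at 25.5, 27.0 and 26.0 FPKM at 48 h and 14.5, 19.4 and 16.1 FPKM at 72 h and fell by 0.63 log2 units, and the chemokines CCL2 and CXCL8 fell by 0.67 and 0.70. The 6 lower genes became 3 without 48 h replicate 2 or 72 h replicate 3, and 10 without 72 h replicate 2. With equal FPKM sums 3 were lower. CXCL8 lost its call without 48 h replicate 1, 48 h replicate 2, 48 h replicate 3, 72 h replicate 1 or 72 h replicate 3 (adjusted p up to 0.102).

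Called interferon-responsive genes were lower at 72 h with 1 exception. Of 40 tested genes of the interferon response and antigen presentation, 15 were lower and 1 higher, with a median log2 change of -0.29 that stayed between -0.25 and -0.19 under the other scalings. CMPK2, a mitochondrial nucleotide kinase induced by interferon, stood at 21.0, 25.9 and 24.8 FPKM at 48 h and 15.1, 15.0 and 14.3 FPKM at 72 h and fell by 0.65 log2 units. ISG15, a ubiquitin-like modifier, stood at 541, 709 and 599.8 FPKM at 48 h and 384, 486 and 338 FPKM at 72 h and fell by 0.62 log2 units. The libraries of the times were apart in both genes. IFIT1, which binds foreign RNA, fell by 0.47 log2 units, the RNA sensor RIGI by 0.43 and the peptide transporter TAP1 by 0.38. IFI6 was the 1 higher gene (log2 change 0.26). The 15 became 4 without 48 h replicate 2, 6 without 72 h replicate 1 and 8 without 72 h replicate 3. With equal FPKM sums 7 were lower, and 10 to 12 under the other 4 scalings; 7 of the 15 kept the call in each scaling. ISG15, RIGI, TAP1 and IFI6 lost their calls without at least 1 of 48 h replicate 1, 48 h replicate 2, 48 h replicate 3, 72 h replicate 1, 72 h replicate 2 and 72 h replicate 3 (adjusted p up to 0.135).

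Calls among genes for making ribosomes and processing RNA were mostly lower, and the changes were small. Of 39 tested genes of ribosome biogenesis and MYC, 13 were lower and 3 higher, with a median log2 change of -0.22. LYAR, a nucleolar protein, stood at 19.1, 17.3 and 18.2 FPKM at 48 h and 9.30, 11.4 and 10.97 FPKM at 72 h and fell by 0.74 log2 units, and DKC1, which guides pseudouridine formation in ribosomal RNA, fell by 0.50. MXI1, an antagonist of MYC at its binding sites, rose by 0.76 log2 units. Of 38 tested splicing genes, 14 were lower and none higher, with a median of -0.22; CLK1, a kinase of splicing factors, stood at 29.98, 26.7 and 28.6 FPKM at 48 h and 14.9, 15.5 and 17.8 FPKM at 72 h and fell by 0.79 log2 units. HNRNPA1 and SNRPD1 fell by 0.49 and 0.45 log2 units. The 13 became 4 to 7 and the 14 became 4 to 9 when 48 h replicate 1, 48 h replicate 2 or any 72 h library was left out, and 17 in both lists without 48 h replicate 3. Under the other scalings 5 to 8 genes of ribosome biogenesis and 7 to 10 splicing genes were lower.

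Cytosolic ribosomal protein genes had negative changes in 46 of 46 tested members, with a median log2 change of -0.19, but limma called none of them. The list median was 0.11, 0.01 and -0.14 in the 48 h libraries and -0.22, -0.06 and -0.27 in the 72 h libraries, relative to the 48 h mean, so the times overlapped. It was -0.02 once the trend with gene span was removed. Near-identical pseudogene copies make the values of these genes uncertain. Proteasome genes had 4 lower and none higher of 34 tested (11.8% called, against 16.8% of all tested genes), with a median of -0.16. PSMA5, a subunit of the core particle, fell by 0.37 log2 units. Translation factors had 2 higher and 4 lower of 32 (18.8% called), with EIF4A1, a helicase of initiation, at a log2 change of -0.30. EIF4A1 lost its call without 48 h replicate 2 or 72 h replicate 1 (adjusted p up to 0.0836).

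Among the stress lists, 24.1% of the heat shock and 19% of the ATF4 genes were called, against 16.8% of all tested genes, and 7.89% of the unfolded protein response and 13.3% of the antioxidant genes. Of 29 tested heat shock and chaperonin genes, 6 were lower and 1 higher, with HSPB1, a small heat shock protein, at a log2 change of -0.44 and the chaperonin subunit CCT5 at -0.39. The 6 became 1 or 2 without any library other than 48 h replicate 3. Under the other scalings 2 to 4 were lower, and 5 to 9 genes of the unfolded protein response were higher. Of 38 tested genes of the unfolded protein response, 3 were higher and none lower: HSPA5, the main chaperone of the endoplasmic reticulum, stood at 369, 362 and 372 FPKM at 48 h and 446, 453 and 474 FPKM at 72 h and rose by 0.31 log2 units, and DNAJB9 and UGGT2 rose by 0.51 and 0.43. The ATF4 list had 4 higher and 4 lower of 42, with NUPR1, a stress-induced chromatin protein, at a log2 change of 0.76 and DDIT3, the factor CHOP, at -0.47. Antioxidant genes had 1 higher and 3 lower of 30, among them NQO1 (log2 change -0.47), a quinone reductase that both NRF2 and the aryl hydrocarbon receptor control. Of 7 tested genes of that receptor, 1 was higher, ARNT, and 2 were lower, NQO1 and the receptor's repressor AHRR, which fell by 0.54 log2 units. In the clock list 3 of 20 were higher and 2 lower: NFIL3 and RORA, which act on clock promoters, changed by 0.58 and 0.43 log2 units, and CRY2 and PER1, repressors of the clock, by -0.39 and -0.29. RORA stood at 0.51, 0.71 and 0.82 FPKM at 48 h and 1.18, 1.28 and 1.33 FPKM at 72 h. It reached 1 FPKM only at 72 h, so it was tested only through the group where it was higher. HSPB1, HSPA5, UGGT2, NQO1, RORA, CRY2 and PER1 lost their calls without at least 1 of 48 h replicate 1, 48 h replicate 2, 72 h replicate 1, 72 h replicate 2 and 72 h replicate 3 (adjusted p up to 0.129).

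Markers of fibroblasts were higher in 8 of 19 tested genes and lower in none, with a median log2 change of 0.21. That is 42.1% called, against 16.8% of all tested genes. The 8 became 4 without 48 h replicate 2 and 5 without 72 h replicate 1 or 72 h replicate 3. Rises of the markers POSTN, DDR2, DCN, LUM, FN1, FAP and PDGFRB are given above with other lists, so this count repeats part of those results. The summed level of the fibroblast markers was 24570 to 25540 FPKM at 48 h and 27470 to 28060 at 72 h. Lists of other cells had few tested members. Leukocyte markers summed to 28.2 to 28.5 FPKM at 48 h and 27.4 to 30.1 at 72 h, mostly LYZ and CD14, with PTPRC, CD163, CD3E and C1QA at 0 in each library. Endothelial markers summed to 12.6 to 15.1 FPKM at 48 h and 18.6 to 20.2 at 72 h, mostly ERG, a transcription factor of endothelium and cartilage, which rose by 0.55 log2 units, whereas CDH5 and ROBO4 were at 0 in every library. Epithelial markers summed to 14.6 to 15.1 FPKM at 48 h and 11.3 to 12.5 at 72 h, mostly the keratin KRT8 (log2 change -0.37), with CLDN3 and GRHL2 at 0. Pericyte and smooth muscle markers summed to 3109 to 3664 FPKM at 48 h and 3269 to 3802 at 72 h; only MCAM was called among 9 tested (log2 change -0.40), and RGS5 reached 0.04 FPKM. Skeletal muscle markers had 1 lower of 5 tested, MYH3 (log2 change -0.45), and the factor MYOD1 stayed at or below 0.14 FPKM. Neural markers summed to 166.7 to 191 FPKM at 48 h and 154 to 173 at 72 h, mostly the tubulin TUBB3, which was not called, while STMN2, a tubulin-binding protein, fell by 0.51 log2 units and ELAVL3 was at 0. Bone and cartilage markers had 3 higher of 9 tested, with ALPL, a phosphatase of mineralizing cells, among them; it stood at 0.91, 1.01 and 1.08 FPKM at 48 h and 2.87, 3.10 and 2.08 FPKM at 72 h. COL11A1 and SPP1, osteopontin, rose by 0.53 and 0.30 log2 units. The part of such cells in the changes above was not tested. KRT8, MCAM, MYH3, COL11A1 and SPP1 lost their calls without at least 1 of 48 h replicate 1, 48 h replicate 2, 48 h replicate 3, 72 h replicate 1, 72 h replicate 2 and 72 h replicate 3 (adjusted p up to 0.134).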

How the data were processed

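The 6 libraries compared, 3 at 48 h and 3 at 72 h of insulin, were made from total RNA after removal of ribosomal RNA, with a NEBNext Ultra kit, per the labels' protocols. The deposited values are FPKM, 1 per gene and library with 2 decimals, made by the authors, per the file headers. The tools in the submitters' processing notes are HISAT2 2.1.0, RSEM 1.2.28, featureCounts 2.0.2 and DESeq2 without a version, and the build is Sscrofa11.1; roles and order are not listed. Strand use in counting is not stated there either, and overlapping genes on opposite strands could therefore share reads. FPKM are scaled within a library, so abundant transcripts that rise lower the others, and read depth is unknown.

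Each file listed 30477 gene IDs, 14864 with a symbol. The test took the 10892 genes (9752 with a symbol) that reached an FPKM of 1 in 3 or more libraries. limma 3.58.1 in R 4.3.3 was run on log2(FPKM + 1) with time as the only term, empirical Bayes with a trend in the prior variance, and two-sided tests with Benjamini-Hochberg adjustment over all tested genes. RefSeq rows for Sscrofa11.1, joined by symbol, gave coordinates and spans (introns included) for 9189 tested genes. The fit was tested on simulated data. Whether replicate numbers pair the samples is not known, and no block was used in the main fit.

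The comparison, the 53 gene lists and the tests were chosen with earlier results of these data known. Genes were named by rule: the 10 highest and 10 lowest called genes with a symbol whose libraries did not overlap, for each list with at least 3 called members up to 2 with the largest change in the direction of most of its calls and 1 against it, and 20 insulin genes whatever their values, of which 16 were tested, giving 138 genes in all. Other genes in the text were chosen after their values were seen, as members of those lists or for the size of their change. No symbol matched AKT1, SLC2A1 or IGFBP3, which were not analysed here. A result for 1 gene named by the rule is not reported here. The control libraries were not used. In all, 20 alternative settings were run, varying the pseudocount, the filter, the scaling, a gene span trend, library weights, the prior variance, the replicate block and each library in turn.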

Additional observations from a re-analysis of the deposited data

How the results depend on the processing

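Of the 1833 calls, none changed sign in any of the 20 alternatives, and 1009 to 1827 of those tested were kept, or 767 to 1656 when 1 library was left out. Calls numbered 1120 (369 higher, 751 lower) without a filter and 5502 (2291 higher, 3211 lower, 86 lower by at least 1) with library weights, a fit that stopped before converging and gave 48 h replicate 2 a weight of 17.1; the cause was not tested. It also called 37 ribosomal protein genes lower, against 0 as reported and 0 to 6 with 1 library left out. With a pseudocount of 0.1, 53 genes were higher and 128 lower by at least 1, and with 5, 11 and 15. With equal FPKM sums 752 genes were lower, 35 of them by at least 1, and 30 were lower by that much with the gene span trend removed. In the genes that have a span, 36.0% of calls were higher without that removal, a setting added after the data were seen, and 46.5% with it. Leaving out 1 library gave 772 to 2484 calls, 256 to 1004 higher and 516 to 1480 lower, 23 to 45 higher and 37 to 78 lower by at least 1; the calls were 1131 without 48 h replicate 1, 772 without 48 h replicate 2, 875 without 72 h replicate 1 and 981 without 72 h replicate 3. Lists with fewer than 5 calls in a direction had 0 to 10 then. Of 122 called genes named by the rule, 73 kept the call in every alternative. Deviations of same-numbered libraries correlated at 0.04, 0.05 and 0.06. Higher correlations were found between unlike numbers. They were 0.121 for 48 h replicate 3 with 72 h replicate 1 and 0.115 for 48 h replicate 2 with 72 h replicate 3. For 48 h replicate 1 with 72 h replicate 2 the value was 0.112. With 3 libraries per time, these correlations cannot tell whether the numbers pair the samples. The fit with the replicate block called 1966 genes (664 higher, 1302 lower). Without counts, the spread between 3 libraries sets the precision.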

Other observations

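The genes described next belong to none of the gene lists and were chosen after their values were seen, for the size of their change. Among the lower ones, MYBL2, a transcription factor of the S and G2 phases, stood at 81.3, 77.1 and 67.2 FPKM at 48 h and 31.5, 34.7 and 29.6 FPKM at 72 h and fell by 1.21 log2 units (adjusted p = 0.000124), and PCLAF, a partner of the replication clamp, stood at 64.8, 66.9 and 82.1 FPKM at 48 h and 31.4, 34.4 and 29.1 FPKM at 72 h and fell by 1.14 log2 units (adjusted p = 0.000285). The kinesin KIF22 fell by 1.21 log2 units, and the kinesin KIFC1 fell by 1.14 log2 units. MT1X, a metallothionein that binds zinc and copper, stood at 60.5, 53.01 and 47.0 FPKM at 48 h and 21.2, 26.1 and 21.4 FPKM at 72 h and fell by 1.19 log2 units (adjusted p = 0.000303); near-identical family members could share its reads. ESM1, a proteoglycan known from endothelial cells, stood at 7.46, 7.86 and 7.96 FPKM at 48 h and 3.44, 2.93 and 3.97 FPKM at 72 h and fell by 0.98 log2 units (adjusted p = 0.000489). In each of these genes with library values the times did not overlap.

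Among the higher ones, CEMIP, which takes part in the breakdown of hyaluronan, stood at 19.5, 19.7 and 20.7 FPKM at 48 h and 44.7, 38.4 and 44.0 FPKM at 72 h and rose by 1.05 log2 units (adjusted p = 0.000124). NCEH1, a hydrolase of cholesterol esters, stood at 12.3, 11.2 and 14.6 FPKM at 48 h and 29.5, 24.1 and 29.7 FPKM at 72 h and rose by 1.07 log2 units (adjusted p = 0.000538). Clusterin (CLU), a secreted chaperone, stood at 929.5, 772 and 768 FPKM at 48 h and 1524, 1456 and 1468 FPKM at 72 h and rose by 0.85 log2 units (adjusted p = 0.000527). The transferrin receptor gene TFRC, for iron uptake, stood at 57.7, 70.9 and 79.1 FPKM at 48 h and 117, 140.5 and 122 FPKM at 72 h and rose by 0.87 log2 units (adjusted p = 0.00192). The aldehyde dehydrogenase ALDH2 and the aminopeptidase ANPEP rose by 0.98 and 0.97 log2 units. No 72 h library was below a 48 h library in any gene of this paragraph whose libraries are given. Of the 1833 called genes, 186 carried no symbol in the tables used here.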
